A study of Mus musculus with 17 samples.

Results

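The 10 genes described here, *Bmp4*, *Inhba*, *Grem1*, *Smad3*, *Smad6*, *Smad7*, *Skil*, *Id1*, *Id2* and *Id3*, were taken by name from the 31053 genes counted in cardiac fibroblasts (CFs) after myocardial infarction (MI). They cover ligands of the BMP and activin families, a secreted antagonist, SMAD proteins with their inhibitors, and immediate targets of the pathway. RNA was measured in 17 libraries of CFs sorted as GFP+/CD31-/CD45- cells from the hearts of C57BL/6 mice of the genotype Collagen1a1-GFP+, 8 to 10 weeks old, at 1 to 6 days post-infarction (dpi). There were 3 libraries each at 1, 2, 4 and 6 dpi, 4 libraries at 3 dpi and 1 library at 5 dpi. All groups had an infarct and carried the reporter, and uninjured hearts were not analysed here, so that each difference is between days after MI. The reporter limits the cells to those in which the *Col1a1* promoter drives GFP. The methods name individual mice as the source of the cells of 3 and 5 dpi and call the libraries biological replicates, and which mouse gave which library is not given in the sources used here. The p-values measure the spread between these libraries.

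BMPs and activins are secreted dimers of the TGF-β superfamily that bind pairs of type I and type II serine/threonine kinase receptors. Activated BMP receptors phosphorylate SMAD1, SMAD5 and SMAD9, activin and TGF-β receptors phosphorylate SMAD2 and SMAD3, and both groups enter the nucleus with SMAD4. The pathway induces its own inhibitors, among them the inhibitory SMADs, and the *Id* genes are classical immediate targets of BMP signaling. In the injured heart the TGF-β and activin branch is known for the activation of fibroblasts and the deposition of matrix.

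Depth ranged from 8021815 to 22029938 counts per library. The labelled cell type was visible in its markers, since 8 fibroblast genes together held between 12212.7 and 38656.9 CPM (counts scaled to the library total) in each library. The 8 endothelial genes held at most 82.2 CPM and the 10 leukocyte genes at most 203.1 CPM, with *Cd3e* at 0 in every library. The fibroblast markers themselves moved: 6 of 8 were called over the time course and in the window against 1 and 2 dpi (3 higher and 3 lower), and 5 of 8 at 6 against 1 dpi (3 higher and 2 lower). The libraries also differed in sex-linked RNA: *Xist* exceeded the Y-linked genes in 1 of 3 libraries at 1 dpi and in all libraries at 4 and 6 dpi, and the other libraries had the reverse. The 3 dpi libraries carry names of a different scheme from the rest. In every step into or out of 3 dpi, the day cannot be told apart from this difference. The calls over the time course are given with and without the 3 dpi libraries, and those of the window with and without 3 dpi among its days.

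The pathway genes changed over the first week at the level of a ligand, a signal-transducing SMAD, both inhibitory SMADs and a target. *Inhba*, the gene of the activin A subunit, was highest at 1 dpi and fell 7.83-fold by 6 dpi. *Smad7* peaked at 3 dpi and *Smad6* rose at 3 dpi, while *Smad3* had its lowest mean of the replicated days at 3 dpi. *Id1* and *Id3* were higher at 6 dpi than at 1 dpi. With edgeR's quasi-likelihood test over all days, 5 of the 9 genes that passed the filter on low counts (10 counts in 3 libraries) had an adjusted p under 0.05, beside 15.0% of all 14030 genes tested. These were *Inhba*, *Smad3*, *Smad6*, *Smad7* and *Id1*. The 10 genes were chosen with earlier results of these data known, so their share is no independent measure beside that of all genes. DESeq2 called 8 of the 9, beside 26.8% of all genes. Without replicate 3 of 1 dpi the count was 3 (*Inhba*, *Smad3* and *Smad7*), beside 11.9%. With each of the 17 libraries left out in turn, *Inhba*, *Smad3* and *Smad7* kept their call over the time course in all fits, *Smad6* in 16 and *Id1* in 10. *Id1* lost it without any replicate of 1 dpi, replicate 1 of 2 dpi, replicate 3 or 4 of 3 dpi or replicate 2 of 6 dpi (edgeR adjusted p up to 0.1). Without the 4 libraries of 3 dpi, 4 members were called, beside 11.3% of all genes. These were *Inhba*, *Id1*, *Bmp4* (edgeR adjusted p = 0.037) and *Smad6*, the last just under the threshold (0.05 when rounded). *Smad3* (0.061) and *Smad7* (0.14) were not called. *Grem1* did not pass the filter.

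**Figure D1:**
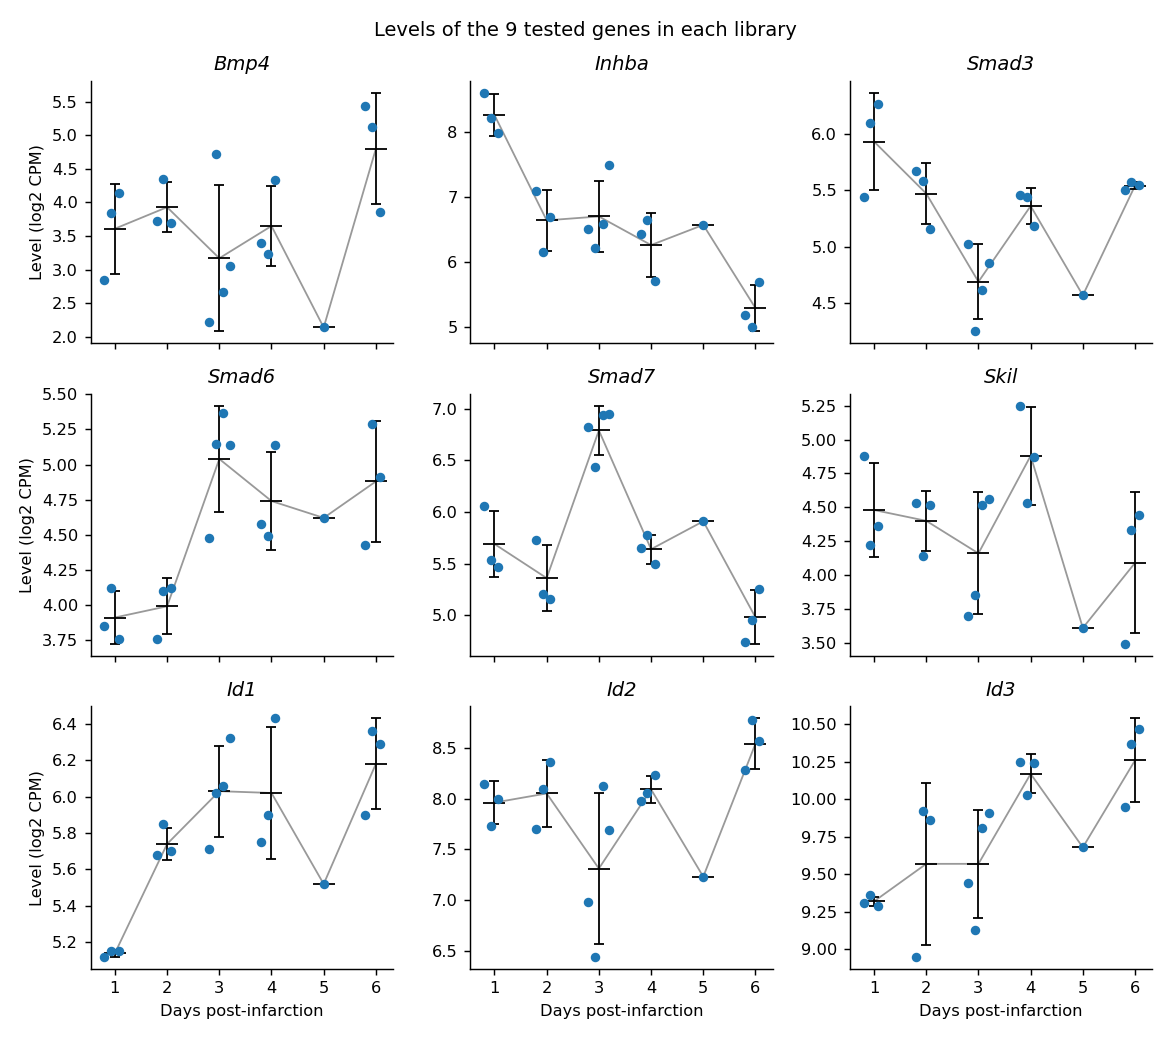
Level of each of the 9 tested genes (vertical axis, log2 CPM after TMM scaling) by day post-infarction (horizontal axis). Points are libraries, horizontal marks are day means, bars are the SD and the grey line joins the means, with a single library at 5 dpi. *Inhba* went from a mean of 8.26 at 1 dpi to 5.29 at 6 dpi, and the 4 libraries of 3 dpi had the highest *Smad7* levels of all.

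Levels are log2 CPM, in which a difference of 1 is a doubling, and they compare a gene between libraries and not with another gene, since no correction for length is made. Gene positions are those of GRCm38. In sorted populations, fewer cells that express a gene and less RNA per cell cannot be told apart.

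*Inhba* (chr13:16011851-16031621) encodes the βA chain shared by activin A and inhibin A. Its level was 8.60, 8.21 and 7.98 in the libraries of 1 dpi and 7.09, 6.16 and 6.69 in those of 2 dpi. It was 6.50, 6.22, 6.59 and 7.49 at 3 dpi, 6.43, 6.65 and 5.70 at 4 dpi, and 6.57 in the library of 5 dpi. At 6 dpi it was 5.18, 5.00 and 5.69. The libraries of 1 dpi lay above all others and those of 6 dpi below all others, and from 2 to 5 dpi the day means differed by less than the spread of the libraries. The fall from 1 to 6 dpi measured 2.97 on the log2 scale (SE 0.36, adjusted p = 4.2e-05 with edgeR's quasi-likelihood test). The first step, from 1 to 2 dpi, was -1.59 (SE 0.35) with ranges that did not overlap, and edgeR's adjusted p was 0.086. That step passed the threshold with DESeq2 (adjusted p = 0.0017), when only the libraries of 1 and 2 dpi were fitted (edgeR, 0.017) and without replicate 2 (0.036) or replicate 4 (0.034) of 3 dpi.

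The bases upstream of *Inhba* (chr13:16011601-16011850, plus strand, GRCm38.p6, promoter window of RefSeq) are shown because the gene had the widest span of day means among the 9. None of 3 SMAD-binding motifs was found in its window of 250 bases before to 50 bases after the start.

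Inhba: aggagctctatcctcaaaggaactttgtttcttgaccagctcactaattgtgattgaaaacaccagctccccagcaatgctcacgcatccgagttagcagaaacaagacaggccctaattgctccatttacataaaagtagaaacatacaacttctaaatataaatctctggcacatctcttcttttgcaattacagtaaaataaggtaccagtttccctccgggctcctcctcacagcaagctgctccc

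The motifs searched on both strands were the SMAD box CAGAC, its palindrome GTCTAGAC, which contains no full box, and the GC-rich motif GGCGCC. They occur in 49.6%, 0.213% and 11.9% of 32851 promoter windows of the same length. Windows were given for 7 of the 10 genes. *Id1*, *Skil* and *Smad7* had none.

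*Bmp4* (chr14:46383520-46390669) encodes a BMP ligand known from heart development. It was read at low depth, between 41 and 666 counts per library. Its levels were 2.85, 3.84 and 4.14 at 1 dpi, 3.73, 4.35 and 3.70 at 2 dpi and 2.22, 4.72, 2.67 and 3.06 at 3 dpi. They were 3.40, 3.24 and 4.33 at 4 dpi, 2.14 at 5 dpi and 5.43, 5.12 and 3.86 at 6 dpi. Replicate 2 of 3 dpi stood above the other libraries of its day, and 2 of the 3 libraries of 6 dpi were above every other library in the series. A window of 3, 4 and 5 dpi holds 8 libraries. Each of its days has equal weight, so the 1 library of 5 dpi counts as much as the 4 of 3 dpi. Against this window *Bmp4* was 3.57-fold higher at 6 dpi (window minus 6 dpi -1.83, SE 0.47, edgeR adjusted p = 0.017). The ranges overlapped, and 6 of the 8 libraries of the window were below all libraries of 6 dpi. The call was lost without replicate 1 (-1.51, adjusted p = 0.11) or replicate 2 (-1.74, 0.087) of 6 dpi. Between 6 and 4 dpi alone the log2 difference of *Bmp4* was 1.22 (SE 0.54, edgeR adjusted p = 0.22). Against 1 and 2 dpi the window had a log2 difference of -0.72 (SE 0.40, edgeR adjusted p = 0.31), and it ranged from -1.01 (0.04) without replicate 2 of 3 dpi to -0.22 (0.79) without the library of 5 dpi. Exons of *Bmp4* overlap those of *Gm15217* on the opposite strand, and without a stated strand setting their reads cannot be told apart.

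*Grem1* (chr2:113746164-113758646) encodes gremlin 1, a secreted protein that binds and blocks BMPs. It had 0 counts in 15 of 17 libraries, 1 count in replicate 2 of 3 dpi and 11 counts in replicate 1 of 6 dpi. A count of 0 allows up to 3 counts, which is 0.136 to 0.374 CPM over the libraries. The 11 counts correspond to 0.659 CPM. *Grem1* was therefore close to the limit of these libraries on every day, and the filter on low counts kept it out of the tests. Its promoter window held the SMAD box at -219 and 18 and GGCGCC at -78 (counted from 1 at the start, with negative positions upstream).

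*Smad3* (chr9:63646767-63757994) encodes the SMAD that carries activin and TGF-β signals to the nucleus. Its levels were 5.44, 6.09 and 6.26 at 1 dpi, 5.67, 5.58 and 5.16 at 2 dpi and 5.02, 4.25, 4.62 and 4.86 at 3 dpi. They were 5.46, 5.44 and 5.18 at 4 dpi, 4.57 at 5 dpi and 5.50, 5.57 and 5.55 at 6 dpi. All libraries of 3 and 5 dpi were below all others. The window of 3, 4 and 5 dpi was 1.80-fold lower than 1 and 2 dpi (log2 difference -0.85, SE 0.19, edgeR adjusted p = 0.0062), and the call was kept without each library in turn. Between 3 and 2 dpi the ranges did not overlap and the log2 difference was -0.78 (SE 0.23), with an adjusted p of 0.078 in edgeR and 0.033 in DESeq2. The window and 6 dpi did not overlap either, with a difference of -0.66 (SE 0.22, edgeR adjusted p = 0.054), and that adjusted p was 0.041 without replicate 1 of 1 dpi, 0.028 without replicate 2 of 3 dpi and 0.021 in DESeq2. Between 6 and 1 dpi the difference was -0.43 (SE 0.25, edgeR adjusted p = 0.27), and it was 0.11 among the libraries in which *Xist* exceeded the Y-linked genes, where 1 dpi had only replicate 1, the lowest *Smad3* of its day.

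*Smad7* (chr18:75367529-75395935) encodes an inhibitory SMAD that binds activated type I receptors and brings in ubiquitin ligases. It stood at 6.06, 5.54 and 5.47 at 1 dpi and at 5.73, 5.21 and 5.16 at 2 dpi. It then stood at 6.82, 6.44, 6.94 and 6.95 at 3 dpi, 5.65, 5.78 and 5.50 at 4 dpi, 5.91 at 5 dpi and 4.74, 4.95 and 5.25 at 6 dpi. The 4 libraries of 3 dpi were above the other 13, and replicates 1 and 2 of 6 dpi were below every other library. *Smad7* rose 2.67-fold from 2 to 3 dpi (log2 difference 1.42, SE 0.24, edgeR adjusted p = 0.0039) and fell 2.23-fold from 3 to 4 dpi (-1.16, SE 0.23, adjusted p = 0.011). The rise was called without each library in turn. The fall was lost without replicate 1 of 4 dpi (-1.16, adjusted p = 0.055) and when the libraries of 3 and 4 dpi were fitted alone (-1.16, 0.052). Both the rise and the fall cross the change in library names, and the day cannot be told apart from it. The libraries of 2 and 3 dpi shared their sex-linked pattern and those of 3 and 4 dpi did not. The only library of 5 dpi has the pattern of 3 dpi and was at 5.91. The part of the sex-linked pattern in the fall of *Smad7* was not tested.

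*Smad6* (chr9:63953076-64022059) encodes the inhibitory SMAD that acts mainly on the BMP branch. Its levels were 3.85, 4.12 and 3.76 at 1 dpi and 3.76, 4.10 and 4.12 at 2 dpi. They were 4.48, 5.15, 5.37 and 5.14 at 3 dpi, 4.58, 4.49 and 5.14 at 4 dpi, 4.62 at 5 dpi and 4.43, 5.29 and 4.91 at 6 dpi. Every library from 3 dpi on was above every library of 1 and 2 dpi, and the days from 3 to 6 dpi overlapped. *Smad6* rose 2.11-fold from 2 to 3 dpi (log2 difference 1.08, SE 0.27, edgeR adjusted p = 0.035) and 2.01-fold from 1 to 6 dpi (1.00, SE 0.28, adjusted p = 0.026). The window was 1.82-fold above 1 and 2 dpi (0.86, SE 0.20, edgeR adjusted p = 0.0098), a call kept without each library in turn. The step from 2 to 3 dpi lost its call without replicate 3 of 1 dpi, any replicate of 2 dpi, or replicate 3 or 4 of 3 dpi, with differences of 0.95 to 1.14 and an adjusted p of 0.051 to 0.12, and when the libraries of 2 and 3 dpi were fitted alone (1.07, 0.065). The difference of 6 against 1 dpi lost it without any replicate of 1 dpi or replicate 2 of 6 dpi (0.78 to 1.11, adjusted p 0.052 to 0.14). *Smad6* and *Smad7* thus both stepped up between 2 and 3 dpi, where the library names also change. From 3 to 4 dpi *Smad7* fell and *Smad6* had a log2 difference of -0.31 (SE 0.26, edgeR adjusted p = 0.58), and whether the members differed in that step was not tested.

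The promoter of *Smad6* (chr9:64022056-64022309, minus strand, GRCm38.p6, RefSeq window to base 4 of the transcript) is shown because of the 7 windows it alone held the palindrome, in capitals, at -4 to 4.

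Smad6: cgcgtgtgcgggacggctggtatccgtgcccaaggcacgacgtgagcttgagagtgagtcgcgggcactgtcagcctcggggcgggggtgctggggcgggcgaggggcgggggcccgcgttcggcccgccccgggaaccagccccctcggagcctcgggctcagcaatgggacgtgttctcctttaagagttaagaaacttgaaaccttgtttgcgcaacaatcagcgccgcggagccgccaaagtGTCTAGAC

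The match describes these letters and not a bound site. Of the other windows, *Id2* held GGCGCC at -231 and *Id3* held the SMAD box at -167 and, on the opposite strand, at -68. *Smad3* and *Bmp4* held none of the motifs.

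*Skil* (chr3:31095058-31122577) encodes SnoN, a co-repressor that binds SMAD complexes. Its day means lay between 3.61 at 5 dpi and 4.88 at 4 dpi, with libraries from 3.49 to 5.25. No comparison of *Skil* passed the threshold in edgeR's quasi-likelihood test. The closest was 6 against 4 dpi, where the ranges did not overlap and the log2 difference was -0.77 (SE 0.31, edgeR adjusted p = 0.19).

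The *Id* genes encode inhibitors of basic helix-loop-helix factors and lie on different chromosomes, *Id1* at chr2:152736251-152737410, *Id2* at chr12:25093799-25097140 and *Id3* at chr4:136143497-136145755. *Id1* was at 5.12, 5.15 and 5.15 at 1 dpi and at 5.68, 5.85 and 5.70 at 2 dpi. It was at 5.71, 6.02, 6.06 and 6.32 at 3 dpi, 5.75, 5.90 and 6.43 at 4 dpi, 5.52 at 5 dpi and 5.90, 6.36 and 6.29 at 6 dpi. The 3 libraries of 1 dpi were close together and below all others. *Id1* rose 2.08-fold between 1 and 6 dpi (log2 difference 1.05, SE 0.23, edgeR adjusted p = 0.0066), a call kept without each library in turn. Between 1 and 2 dpi the ranges did not overlap, with a difference of 0.61 (SE 0.23, edgeR adjusted p = 0.52).

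*Id3* was at 9.31, 9.36 and 9.29 at 1 dpi, 8.95, 9.92 and 9.86 at 2 dpi and 9.44, 9.13, 9.81 and 9.91 at 3 dpi. It was at 10.25, 10.03 and 10.24 at 4 dpi, 9.68 at 5 dpi and 9.95, 10.37 and 10.47 at 6 dpi. All libraries of 4 and 6 dpi were above all of the other days. *Id3* rose 1.94-fold between 1 and 6 dpi (log2 difference 0.96, SE 0.29, edgeR adjusted p = 0.036). That call was lost without any replicate of 1 dpi or replicate 2 or 3 of 6 dpi (0.85 to 0.97, adjusted p 0.065 to 0.11).

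*Id2* was at 8.14, 7.73 and 8.00 at 1 dpi, 7.70, 8.09 and 8.36 at 2 dpi and 6.98, 6.44, 8.12 and 7.69 at 3 dpi. It was at 7.98, 8.05 and 8.23 at 4 dpi, 7.23 at 5 dpi and 8.28, 8.77 and 8.57 at 6 dpi. The libraries of 3 dpi spread most, with an SD of 0.74, and all 8 libraries of the window were below those of 6 dpi. The window minus 6 dpi was -0.96 (SE 0.28, edgeR adjusted p = 0.033). It was not past the threshold without replicate 1 or 2 of 4 dpi, the library of 5 dpi, or replicate 1 or 2 of 6 dpi (-1.09 to -0.79, adjusted p 0.052 to 0.17), or when the libraries compared were fitted alone (-0.97, 0.078). The 3 *Id* genes were all at their highest mean at 6 dpi. *Id1* and *Id3* had their lowest mean at 1 dpi among the days with replicates, and *Id2* had its lowest at 3 dpi.

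**Figure D2:**
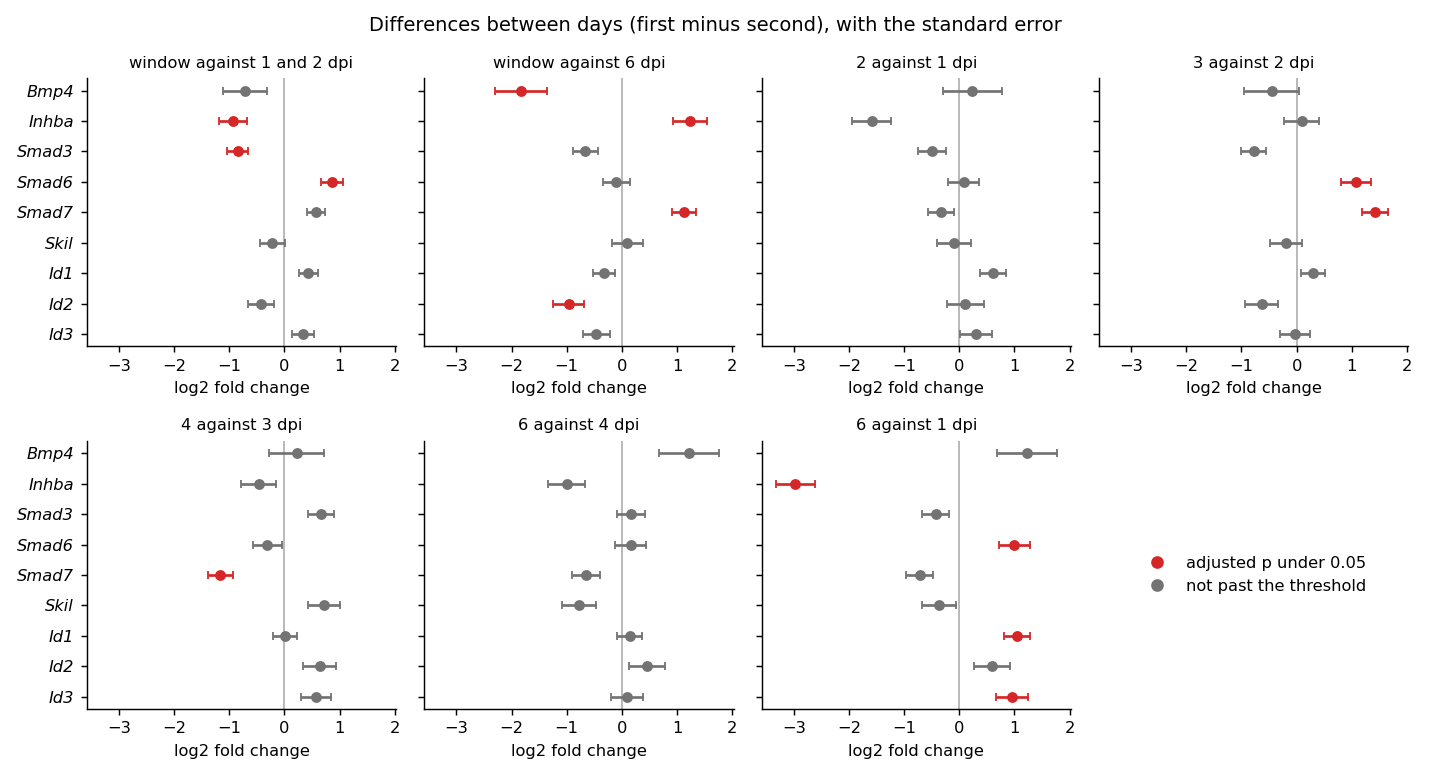
Log2 fold change (horizontal axis, first minus second) of the 9 tested genes in each comparison between days, with bars of 1 SE and red points for an edgeR adjusted p under 0.05. The window is the mean of 3, 4 and 5 dpi. *Inhba* at 6 against 1 dpi (-2.97) was the largest difference, and 2 against 1 dpi and 6 against 4 dpi held no red point.

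Day by day, the steps with member calls were those into and out of 3 dpi, which cross the change in library names. Calls over all genes were also more frequent in these steps, and day and library names cannot be told apart there. By edgeR's quasi-likelihood test, 2 of 9 members were called between 3 and 2 dpi (*Smad6* and *Smad7*, both higher), beside 2.94% of all genes, and 1 between 4 and 3 dpi (*Smad7*, lower), beside 2.71%. Between 2 and 1 dpi 0 members were called, beside 0.178% of all genes, with 2 at an unadjusted p under 0.05. DESeq2 called 1 in that step, *Inhba*, beside 0.741% of all genes. Between 6 and 4 dpi 0 were called, beside 0.513%, with 4 at an unadjusted p under 0.05. DESeq2 called 0 in that step, beside 5.75% of all genes. Over the longest interval, 6 against 1 dpi, 4 members were called, beside 12.1% of all genes. Of these *Smad6*, *Id1* and *Id3* were higher and *Inhba* was lower at 6 dpi, and the median log2 difference of the 9 was 0.59, beside 0.027 for all genes. With DESeq2 the count was 5, *Smad7* included (-0.69, adjusted p = 0.039), beside 17.3% of all genes. Without any replicate of 1 dpi or replicate 2 of 6 dpi it was 2 (*Id1* and *Inhba*), beside 5.46% to 8.14% of all genes. Among the libraries in which *Xist* exceeded the Y-linked genes, the differences were 1.08 for *Smad6*, 1.09 for *Id1* and 0.97 for *Id3*. There 1 dpi had a single library, assumed to vary like the other groups, and nothing is read from which calls were kept.

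The window of 3, 4 and 5 dpi was compared with the days on either side. The study set these days as the transition into reparative CFs from marker genes in bulk data that include this series. It also stained infarcted hearts for CTHRC1, a marker of these CFs, with few positive cells at 3 dpi and more at 5 dpi. Because of the bulk data, the window is not independent of these libraries. Against 1 and 2 dpi, 3 of 9 members were called, beside 7.48% of all genes. *Inhba* (-0.93, SE 0.25, edgeR adjusted p = 0.024) and *Smad3* were lower and *Smad6* was higher in the window, and *Smad7* had a difference of 0.57 (SE 0.17, adjusted p = 0.052 in edgeR and 0.018 in DESeq2). The call of *Inhba* was lost without replicate 1 of 1 dpi (-0.86, adjusted p = 0.058) or replicate 1 of 2 dpi (-0.83, 0.064), and when only libraries in which the Y-linked genes exceeded *Xist* were fitted (-0.72, 0.21), which left a window of 3 and 5 dpi, since no library of 4 dpi was among them. The count was 5 without replicate 2 of 3 dpi, with *Bmp4* and *Smad7* added, beside 11.5% of all genes, and 5 without the library of 5 dpi, with *Smad7* and *Id1* added, beside 6.15%. Against 6 dpi, 4 of 9 were called, beside 11.5% of all genes: *Inhba* (1.24, SE 0.31, edgeR adjusted p = 0.016) and *Smad7* (1.13, SE 0.22, adjusted p = 0.0045) were higher in the window, and *Bmp4* and *Id2* were lower. Without replicate 1 or replicate 2 of 6 dpi the count was 1, *Smad7*, beside 3.5% and 2.14% of all genes.

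With 3 dpi left out of the window, no member was called in either comparison by edgeR's quasi-likelihood test (0 and 0), beside 5.28% and 2.17% of all genes. Unadjusted p was under 0.05 for 3 and 5 members. The 3 dpi libraries stayed in this fit, in its filter, its scaling and its estimate of the spread. Only the mean of the window left them out. The differences of *Inhba* (-1.05), *Smad3* (-0.77) and *Smad6* (0.74) from 1 and 2 dpi stayed near those of the whole window, with an adjusted p of 0.058, 0.058 and 0.084. *Smad7* went from 0.57 to 0.22. Here 4 and 5 dpi had equal weight, so the 1 library of 5 dpi counted as much as all libraries of 4 dpi. *Smad3* had a mean of 5.36 at 4 dpi and 4.57 in the library of 5 dpi, beside 5.70 for 1 and 2 dpi. For *Inhba* (6.26 and 6.57, beside 7.45) and *Smad6* (4.74 and 4.62, beside 3.95), 4 and 5 dpi lay closer together. Against 6 dpi, *Inhba* had 1.13 (adjusted p = 0.08), *Smad7* 0.78 (0.087), *Bmp4* -2.03 (0.067) and *Id2* -0.89 (0.14).

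**Figure D3:**
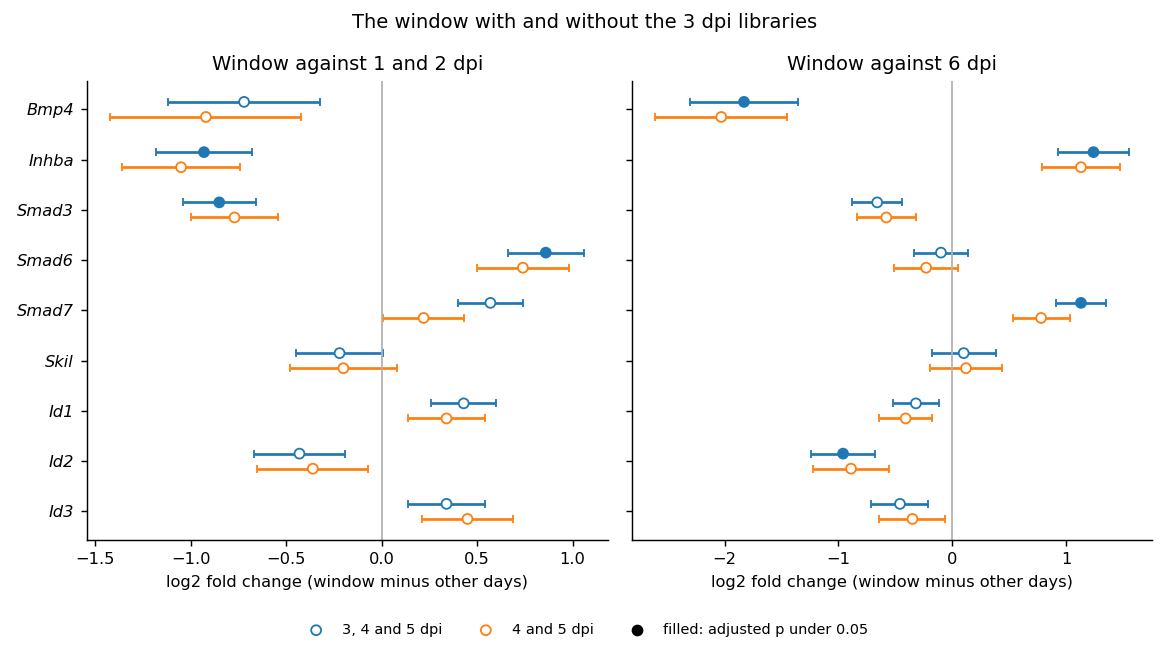
Log2 fold change of the window against 1 and 2 dpi (left) and against 6 dpi (right). The window holds 3 to 5 dpi (blue) or 4 and 5 dpi (orange), and the 3 dpi libraries stayed in both fits. Bars are 1 SE and filled points have an edgeR adjusted p under 0.05. With 3 dpi left out of the window no point is filled, and *Smad7* moved from 0.57 to 0.22 in the left panel.

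Markers of other cells and of handling moved over the same days, and their part in these results was not tested. Between 3 and 2 dpi *Smad6* and *Smad7* rose. There 3 of 7 mural, 1 of 8 tested leukocyte (*Lyz2*) and 1 of 7 tested endothelial genes (*Egfl7*) were called higher. Called lower were 1 of 8 fibroblast genes (*Lum*) and 1 of 3 erythroid genes (*Hba-a1*). The summed leukocyte level was 41.1 to 203.1 CPM at 3 dpi and 8.8 to 18.6 at 2 dpi, and the summed mural level was 87.7 to 150.8 and 64.0 to 78.6. *Cd3e* was at 0 on both days, *Ptprc* at 0 at 2 dpi, and no mural marker was at 0 in all libraries of either day. In the window against 1 and 2 dpi 4 of 7 mural genes and *Lyz2* were higher and *Hspa1a* was lower. Between 4 and 3 dpi, where *Smad7* fell, 3 of 6 cardiomyocyte genes, 2 of 3 erythroid genes and the fibroblast gene *Lum* were higher. The erythroid genes were at 153.5 to 1516.7 CPM at 4 dpi and 1.4 to 16.9 at 3 dpi.

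At 6 dpi 5 of 6 cardiomyocyte genes were called higher than at 1 dpi and than in the window, with a summed level of 69.7 to 147.6 CPM against 16.8 to 36.9 at 1 dpi, 8.5 to 12.8 at 3 dpi, 35.2 to 62.9 at 4 dpi and 13.6 at 5 dpi. Of the mural genes 4 of 7 were higher at 6 than at 1 dpi (136.9 to 169.1 against 42.1 to 89.7 CPM). *Msln*, 1 of 7 mesothelial genes, was higher at 6 dpi than in the window, with the list at 67.3 to 460.6 CPM at 6 dpi, 31.7 to 131.0 at 3 and 4 dpi and 188.8 at 5 dpi. None of the cardiomyocyte, mural or mesothelial markers was at 0 in all libraries of a day. Of 12 immediate early and heat shock genes, *Hspa1a* and *Hspa1b* were lower at 6 than at 1 dpi, with the list at 6407.0 to 7400.3 and 6421.7 to 10705.9 CPM. *Fosb* of that list was higher at 6 dpi than in the window, as was the fibroblast gene *Lum*. Over the time course *Hspa1a*, *Hspa1b* and *Nr4a1* were called. The part of these markers in the differences of *Bmp4*, *Inhba* and the *Id* genes was not tested.

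Beside the 10 genes, 72 other genes of the BMP and activin pathway were listed by role, of which 59 passed the filter. Over the whole time course 9 of them were called (15.3%), against 15.0% of all genes. In the window against 1 and 2 dpi 4 were called (6.8%, 3 higher and 1 lower), against 7.48%, and the median log2 difference of the 59 was -0.04. Without the 3 dpi libraries 9 were again called over the time course, but *Gdf6* (edgeR adjusted p = 0.056), *Bmpr2* (0.31) and *Acvrl1* (0.071) were not among them. Genes newly called in that fit included *Atoh8* (0.027) and *Rgma* (0.042). The genes named next are the 3 of each role with the smallest p over the time course among those with a mean of 100 counts or more, with 2 of the targets.

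Of the ligands, 10 of 19 passed the filter and 2 were called over the time course, *Gdf15* and *Gdf6*. *Gdf15*, a stress-induced member of the family, had a mean of 5.72 ± 0.31 (SD, n = 3) at 1 dpi and of 3.65 ± 0.29 (n = 4) at 3 dpi. The window was 2.51-fold lower than 1 and 2 dpi (log2 difference -1.33, SE 0.18, edgeR adjusted p = 8.9e-05), with ranges that did not overlap. *Gdf6*, a BMP-type ligand, was 2.81-fold higher in the window (1.49, SE 0.29, edgeR adjusted p = 0.0026) and also higher than at 6 dpi (1.21, SE 0.37, adjusted p = 0.04). The latter call was lost in 7 of 17 fits with a library left out (adjusted p up to 0.22) and with 3 dpi left out of the window (1.12, 0.13). *Inhbb*, which encodes the βB chain of activins, was not called, with day means of 3.58 to 4.73.

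Of the receptors and co-receptors, 12 of 13 passed and 2 were called. With each library left out in turn, *Bmpr2* kept its call over the time course in 13 of 17 fits and *Acvrl1* in 6 (edgeR adjusted p up to 0.085 and 0.21). *Bmpr2*, the type II receptor of BMPs, fell 2.47-fold from 2 to 3 dpi (log2 difference -1.31, SE 0.28, edgeR adjusted p = 0.016), from 5.42 ± 0.22 (SD, n = 3) to 4.08 ± 0.42 (n = 4), a call lost without replicate 2 of 2 dpi or replicate 1 or 4 of 3 dpi (adjusted p up to 0.11). *Acvrl1*, the type I receptor ALK1, was 2.06-fold higher at 6 than at 1 dpi (1.04, SE 0.33, edgeR adjusted p = 0.043), a call lost in 8 of 17 fits with a library left out (up to 0.18). *Rgma*, a BMP co-receptor, was not called over the time course (edgeR adjusted p = 0.086), but was without the 3 dpi libraries (0.042). Of the antagonists and modulators 13 of 15 passed and 2 were called, both higher at 6 than at 1 dpi: *Nbl1*, a secreted BMP antagonist of the DAN family (1.52, SE 0.31, edgeR adjusted p = 0.0034), and *Fstl1*, a secreted follistatin-like glycoprotein (1.17, SE 0.34, adjusted p = 0.031), whose call was lost without any replicate of 1 dpi or replicate 1 or 2 of 6 dpi (up to 0.12). *Nbl1* was also 3.21-fold higher at 6 dpi than in the window. With a library left out, *Nbl1* kept its call over the time course in all 17 fits and *Fstl1* in 9 (edgeR adjusted p up to 0.077). *Fstl3*, which binds activins, was not called (edgeR adjusted p = 0.17).

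Of the SMADs and intracellular regulators outside the 10 genes all 14 passed, and only *Ski*, a co-repressor related to *Skil*, was called over the time course by edgeR. *Ski* was 2.18-fold higher at 6 dpi than in the window (window minus 6 dpi -1.12, SE 0.21, edgeR adjusted p = 0.003), with ranges that did not overlap. *Smad4* had its highest mean at 3 dpi (6.00 ± 0.20, SD, n = 4) and an adjusted p of 0.063 over the time course. *Smad1* had an adjusted p of 0.23. Of the targets 10 of 11 passed and 2 were called over the time course. *Tsc22d1*, a TGF-β-stimulated gene, rose 3.39-fold from 2 to 3 dpi (1.76, SE 0.32, edgeR adjusted p = 0.0058), with an adjusted p of 0.056 without replicate 2 of 2 dpi. *Atoh8*, a BMP-responsive transcription factor, was 2.17-fold higher in the window than at 1 and 2 dpi (1.12, SE 0.29, edgeR adjusted p = 0.021). That call was lost with 3 dpi left out of the window (1.10, 0.068) and without replicate 2 or 3 of 1 dpi or of 2 dpi (adjusted p up to 0.066).

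**Figure D4:**
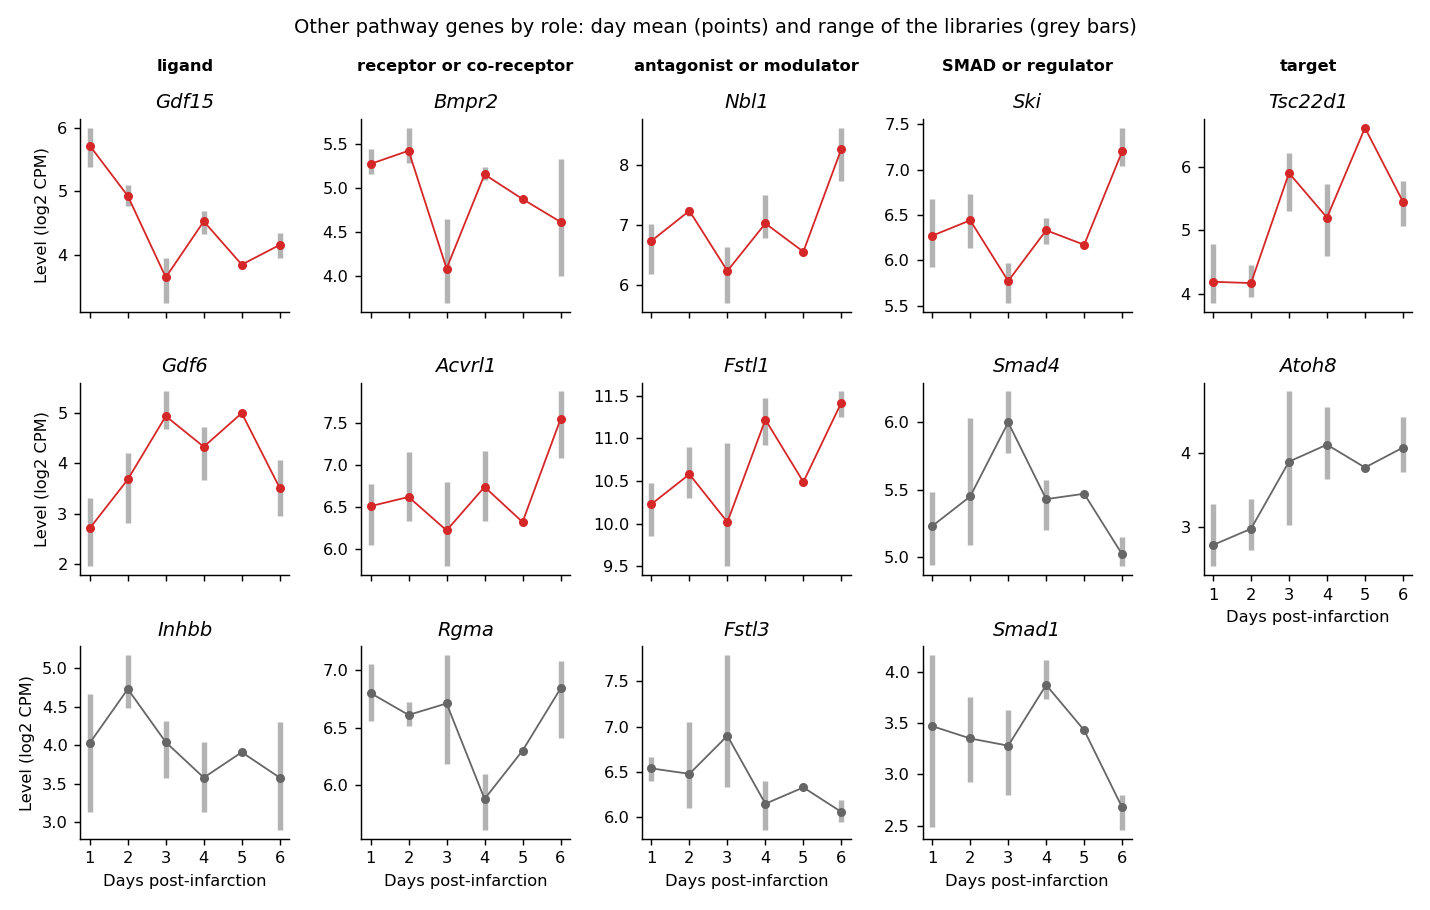
Level (vertical axis, log2 CPM) by day post-infarction (horizontal axis) of 14 other pathway genes, 3 in each role but the targets, with 2. Points are day means, grey bars the range of the libraries, and red marks an edgeR adjusted p under 0.05 over the time course. *Gdf6* had its highest mean of the replicated days at 3 dpi (4.94), and *Nbl1* and *Ski* theirs at 6 dpi (8.26 and 7.20).

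The genes with the most similar course to each of the 5 members called over the time course were taken from 8910 genes with a mean of 100 counts or more. The measure was the root mean square difference of log2 CPM over the 17 libraries after each gene was centred on its own mean, and the points share their libraries and depth. For *Smad7*, whose own deviation from its mean was 0.66, the closest were *Sft2d1* (0.24) and *Gm12166* (0.24), beside a median of 0.78 over all genes compared. For *Inhba* (own deviation 0.97) they were *Hspd1* (0.40) and *Ero1l* (0.43), and for *Smad3* (0.51) *Mat2a* (0.27) and *Slf2* (0.27). For *Smad6* (0.53) they were *Naaa* (0.32) and *Idh2* (0.34), and for *Id1* (0.40) *H3f3a* (0.24) and *Inafm1* (0.24). *Smad7* was followed most closely relative to its own movement, and *Smad6* and *Id1* least.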

How the data were processed

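RNA of sorted CFs was measured by bulk MARS-seq, a method that reads transcripts near their poly-A tail. Demultiplexing was done by the authors with bcl2fastq (1.2.4), alignment to the mouse genome with STAR and counting per gene with featureCounts. The deposited values are raw counts per gene without normalization, as whole numbers, and no collapsing of PCR copies is named in the sources used here, so that limits from a count of 0 cover counting error only. Totals ranged from 8021815 to 22029938 per library (median 14123952).

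Libraries were grouped by day from the labels. The library of 5 dpi has number 3 by its title, which was used, while its description gives 1. Counts were tested with edgeR (4.0.16, R 4.3.3) by its quasi-likelihood test after TMM scaling, with day as a factor of 6 levels over 17 libraries and no block, for 14030 genes that reached 10 counts in 3 or more libraries. Benjamini-Hochberg adjustment ran over all genes tested (threshold 0.05). The SE was obtained as |log2 fold change| / √F. For levels, log2 CPM was computed with 2 as the prior count. The test was checked on simulated data. Alternatives were DESeq2 (1.42.0), its size factors, no filter, a replicate block and only the libraries compared. Others were the window without 3 dpi, with the 3 dpi libraries kept in the fit, and each library left out in turn. A fit without 3 dpi and fits within each sex-linked pattern were added after seeing the data.

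The 10 members and all gene lists were chosen with earlier results of these data known. Members were named in every comparison, other pathway genes as the 3 per role with the smallest p over the time course and a mean of at least 100 counts (1 target is not reported here), and similar genes as the 2 closest to each member called over the time course. Other genes named (*Lyz2*, *Egfl7*, *Lum*, *Hba-a1*, *Msln*, *Hspa1a*, *Hspa1b*, *Fosb*, *Nr4a1*, *Cd3e*, *Ptprc*) are markers named after their values were seen. Schwann and erythroid markers were also summed: Schwann genes held 0.2 to 9.7 CPM with 0 called, and 2 of 3 erythroid genes were called over the time course, with 153.5 to 1516.7 CPM at 4 dpi and 1.4 to 287.6 on the other days. Promoter windows are from RefSeq (GRCm38.p6) and gene positions from the same build. Python (3.11.15), pandas (2.3.3) and matplotlib (3.10.9) were used for tables and figures.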

Additional observations from a re-analysis of the deposited data

How the results depend on the processing

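The calls depended on few libraries. In 17 fits that each left out a library, the members called ranged from 3 to 7 over the time course, 3 to 5 and 1 to 5 for the window against 1 and 2 dpi and against 6 dpi, 0 to 1 for 2 against 1 dpi, 1 to 2 for 3 against 2 dpi, 0 to 1 for 4 against 3 dpi and 2 to 6 for 6 against 1 dpi, and the other pathway genes from 6 to 14 over the time course. In the same fits the share of all genes called moved too, from 9.38% to 24.8% over the time course. It went from 5.6% to 11.5% for the window against 1 and 2 dpi and from 2.14% to 21% against 6 dpi. For the steps it was 0.0928% to 0.229% (2 against 1 dpi), 0.33% to 5.25% (3 against 2 dpi) and 0.904% to 5.17% (4 against 3 dpi). For 6 against 1 dpi it was 5.46% to 18.5%. The window without 3 dpi called 0 members against 1 and 2 dpi and 0 against 6 dpi. DESeq2 called 8 members and 16 other pathway genes over the time course, in place of 5 and 9 (26.8% of all genes in place of 15.0%). For 2 against 1 dpi it called 1 member (0.741% of all genes). With every gene of at least 1 count, 19 pathway genes were called over the time course (18.1% of all genes). That setting gave 1 member for 2 against 1 dpi (0.744%) and 2 for 6 against 4 dpi (4.29%). Only the libraries compared gave 1 member for 2 against 1 dpi (0.489% of all genes), 1 for 3 against 2 dpi (1.95%) and 0 for 4 against 3 dpi (0.976%). The added fit without 3 dpi gave 1 member for 2 against 1 dpi (0.181% of all genes). Libraries with more *Xist* had 1 library at 1 dpi, and no count is read from that fit. The causes of these differences between fits were not tested. Replicate numbers did not pair the libraries (mean correlation of deviations 0.005 over 30 same-numbered and -0.005 over 72 other pairs). With a replicate block 1 member was called for 2 against 1 dpi (*Inhba*) and 1 for 3 against 2 dpi (*Smad7*), beside 0.15% and 1.24% of all genes. Of 1476 recomputed differences of members, 27 had the other sign, 0 of them called in either fit. They were *Inhba* for 3 against 2 dpi (-0.23 with the replicate block) and *Skil* for the window against 6 dpi (-0.01 with it), *Id1* for 4 against 3 dpi (-0.00066 in DESeq2 and -0.02 without the filter), *Bmp4* (-0.04) and *Skil* (0.12) for 2 against 1 dpi among libraries with more Y-linked counts, *Smad3* for 6 against 1 dpi (0.11 among those with more *Xist*) and 20 with a library left out, from 12 pairs of gene and comparison. These ranged from -0.04 to 0.52 (*Bmp4*), -0.06 to 0.27 (*Id2*) and -0.23 to 0.12 (*Skil*) for 2 against 1 dpi, -0.21 to 1.06 (*Bmp4*) and -0.23 to 0.15 (*Id1*) for 4 against 3 dpi, -0.29 to 0.13 (*Id3*) and -0.27 to 0.33 (*Inhba*) for 3 against 2 dpi, -0.0015 to 0.24 (*Id3*) and -0.07 to 0.40 (*Smad6*) for 6 against 4 dpi, -0.30 to 0.10 (*Skil*) for the window against 1 and 2 dpi, and -0.15 to 0.42 (*Skil*) and -0.30 to 0.13 (*Smad6*) against 6 dpi. With raw library totals 3 of 45 day levels moved by over 1 SD. Depth limits *Grem1* and, less, *Bmp4*.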
